A study of Mus musculus with 24 samples.

Results

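The genes described here are 10 genes that the visceral endoderm of the mouse yolk sac is known to express strongly, chosen by name from the 55401 genes of the count table. They are *Afp*, *Ttr* and *Rbp4*, which encode serum carriers, the apolipoprotein genes *Apoa1*, *Apoa2*, *Apoa4*, *Apom* and *Apob*, and *Amn* and *Cubn*, which encode the 2 parts of an endocytic receptor. RNA-seq was made from the maternal-fetal interface (MFI), where placenta and uterine decidua meet, of wild-type (WT) mice and of mice with a homozygous CRISPR-Cas9 deletion in *C1qtnf6* (C1qtnf6-KO), all on a C57BL/6 background. Each genotype had 3 libraries at each of 4 gestation days (gd), from gd10.5 through gd14.5 and gd16.5 to gd19.5, which gives 24 libraries in 8 groups. The WT groups carry no engineered allele, and no group received a treatment. The labels name no dam, litter, fetal sex or sampling date, and the sources used here do not say which fetal membranes stayed on the dissected tissue.

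The visceral endoderm is the epithelium on the outer face of the visceral yolk sac. Before and beside the placenta it takes up nutrients from its surroundings through endocytic receptors, and it secretes serum proteins and lipoproteins into the fetal circulation, much as the fetal liver does later. Placental trophoblast and decidua are not known as main sources of *Afp*, *Ttr* or the apolipoproteins. RNA of bulk tissue holds a mixture of cells, and more cells of a type cannot be told apart from more RNA per cell.

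Total counts per library lay between 20975717 and 37383108, with a median of 26046112, and a count of 3 corresponded to between 0.0773 and 0.149 CPM, the counts scaled to a fixed library size of 1000000. CPM values were scaled with the TMM factors of edgeR over all 24 libraries. *C1qtnf6* lay between 64.7 and 168 CPM in the WT libraries and between 0.0340 and 2.05 CPM in the KO libraries, and so matched each label. The spongiotrophoblast marker *Tpbpa* was present in each library. KO gd10.5 replicate 2 stood apart in it, with 10140 CPM of *Tpbpa* against 645 to 1769 CPM in the other 5 libraries of gd10.5. Sums of other marker lists also differed within groups. Decidual stroma genes, for example, summed to 12017 CPM in KO gd10.5 replicate 3 against 4169 and 3455 CPM in replicates 1 and 2. The p-values given here measure only the spread between these libraries, and nothing in the labels says that the libraries of a group came from separate animals. Y-linked transcripts, given below, differed within groups such as WT gd14.5 and KO gd16.5. The libraries of such a group thus did not all hold the same fetal tissue. How much of the spread is technical was not tested.

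The levels of the 10 genes differed widely between the libraries of single groups. Their summed level was 4223 CPM in WT gd10.5 replicate 1 but 40.2 and 39.7 CPM in WT gd10.5 replicates 2 and 3. The 3 KO libraries of gd10.5 held 2601, 1341 and 4233 CPM. At gd14.5 the sums were low in each library, at 148, 230 and 166 CPM in WT and 133, 125 and 116 CPM in KO. At gd16.5 the sum was 8446 CPM in WT replicate 1 against 259 and 233 CPM in WT replicates 2 and 3, and in KO it was 8057 CPM in replicate 1, 22613 CPM in replicate 2 and 224 CPM in replicate 3. At gd19.5 the sums came back to 317, 293 and 497 CPM in WT and 280, 310 and 248 CPM in KO. The 10 genes thus took between 0.00438% and 2.00% of the counts of a library. The libraries WT gd10.5 replicate 1, WT gd16.5 replicate 1 and KO gd16.5 replicates 1 and 2 stood apart from the rest of their groups. Values without them are given beside the spreads, the correlations and the tests of the 10 genes.

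**Figure D1:**
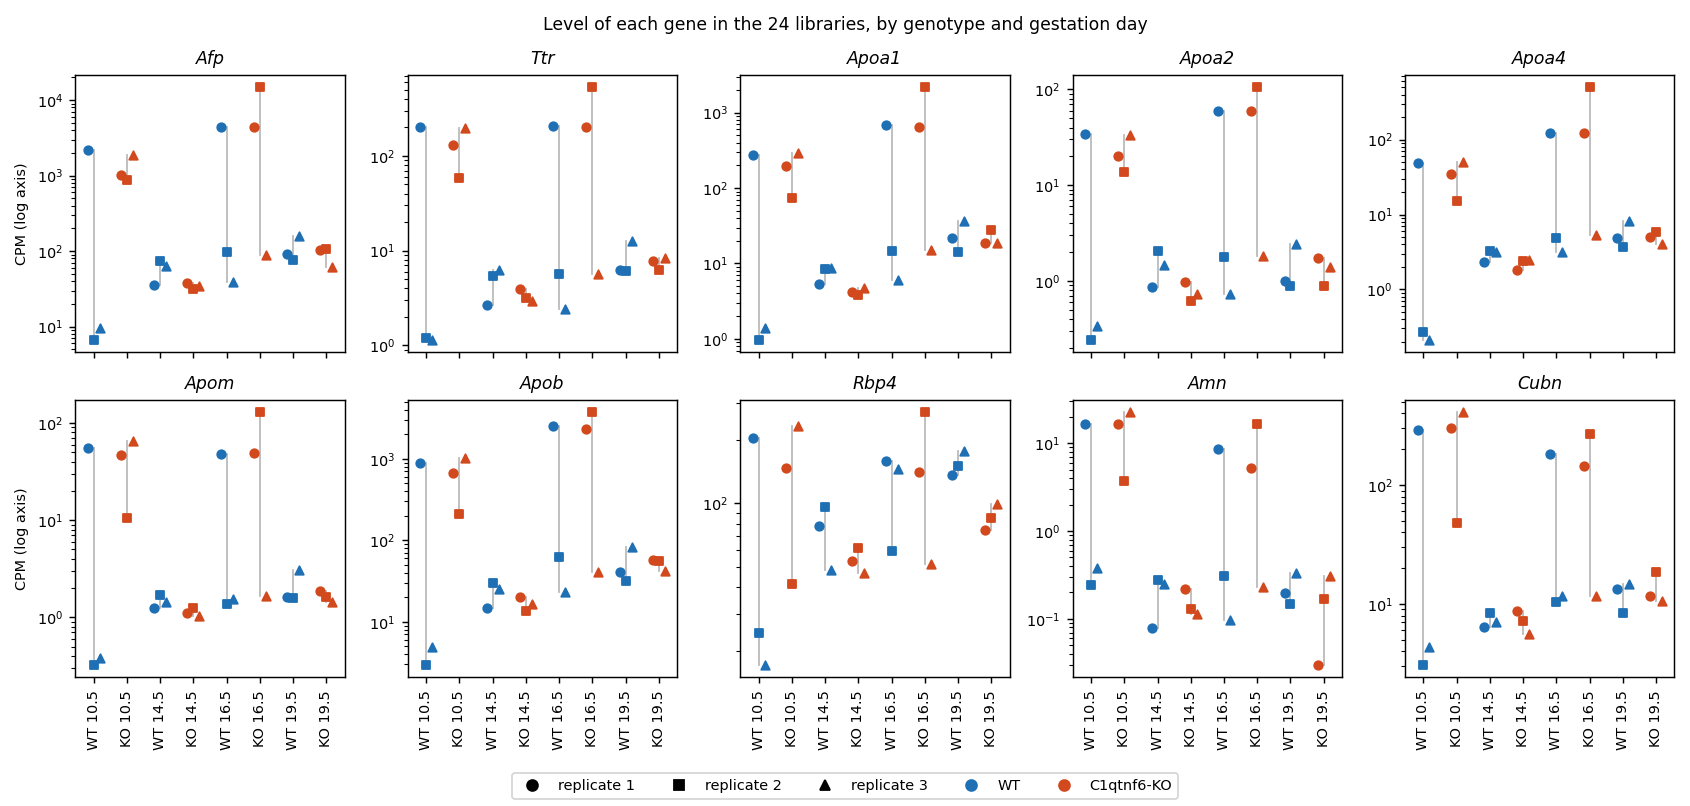
CPM on a log axis (y) of each of the 10 genes in the 8 groups of genotype and gestation day (x), with 1 point per library (circle, square and triangle for replicates 1, 2 and 3) and a line from the lowest to the highest library of a group. In WT gd10.5 and in both groups of gd16.5, 1 or 2 libraries sit far above the others for the 9 genes other than *Rbp4*, and the single library with no *Amn* count is drawn at the bottom of its axis.

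*Afp* encodes alpha-fetoprotein, the main serum protein of the fetus and a relative of albumin. Its level was 2211, 6.66 and 9.43 CPM in the 3 WT libraries of gd10.5 and 1032, 868 and 1892 CPM in the KO libraries. At gd14.5 it was 35.7, 74.8 and 64.4 CPM in WT and 37.7, 31.6 and 34.97 CPM in KO. All 6 libraries of gd14.5 lay above the lower WT libraries of gd10.5 and below the KO libraries of gd10.5. At gd16.5 *Afp* was 4463, 98.1 and 39.0 CPM in WT and 4394, 14877 and 89.98 CPM in KO, so the high libraries of both genotypes overlapped and so did the low ones. At gd19.5 it was 90.5, 75.5 and 159 CPM in WT and 102, 108 and 61.2 CPM in KO. Ordered by mean, KO gd16.5 came first with 6454 ± 7606 CPM (SD, n = 3), followed by WT gd16.5 with 1533 ± 2537 CPM, KO gd10.5 with 1264 ± 550 CPM and WT gd10.5 with 742 ± 1272 CPM, and these neighbours did not differ beyond their spread. The other 4 groups had means between 34.8 and 108 CPM. The counts behind these values ran from 223 to 483129.

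*Ttr* encodes transthyretin, which carries thyroid hormone and holds retinol-binding protein in the blood. It was at 203, 1.19 and 1.14 CPM in WT gd10.5 and 131, 58.6 and 197 CPM in KO gd10.5. At gd16.5 it was at 209, 5.66 and 2.43 CPM in WT and 202, 531 and 5.65 CPM in KO. In the 12 libraries of gd14.5 and gd19.5 it lay between 2.66 and 12.5 CPM. The same libraries of gd10.5 and gd16.5 were high for *Ttr* and *Afp*. In KO gd19.5, by contrast, *Ttr* was highest in the library lowest for *Afp*.

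*Rbp4* encodes the retinol-binding protein that *Ttr* protein holds, and it was the exception among the 10. It reached 204 CPM in WT gd10.5 replicate 1 against 24.3 and 17.2 CPM in the other WT libraries, and 147, 41.5 and 233 CPM in KO gd10.5. At gd14.5 it was 78.0, 96.0 and 48.2 CPM in WT and 53.5, 61.4 and 47.0 CPM in KO. At gd16.5 it was 158, 59.7 and 145 CPM in WT and 141, 270 and 51.5 CPM in KO, so that WT replicate 3 was high for *Rbp4* and low for the other 9 genes. At gd19.5 it was 137, 150 and 177 CPM in WT, and each of the KO libraries was lower with 74.8, 85.4 and 99.2 CPM. The highest library of *Rbp4* exceeded its lowest by less than the highest of any other of the 10 genes did. By mean, WT gd19.5 (155 ± 20.4 CPM, SD, n = 3) and KO gd16.5 (154 ± 110 CPM) led the groups and did not differ beyond their spread.

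Of the apolipoprotein genes, *Apoa1* encodes the main protein of high-density lipoprotein. It was at 275, 0.971 and 1.39 CPM in WT gd10.5, 197, 73.7 and 295 CPM in KO gd10.5, 690, 14.6 and 6.13 CPM in WT gd16.5 and 645, 2177 and 14.997 CPM in KO gd16.5, and between 3.86 and 36.3 CPM at gd14.5 and gd19.5. *Apob*, the structural protein of the particles that carry triglyceride and the longest transcript of the lipoprotein genes here, was at 884, 2.97 and 4.90 CPM in WT gd10.5, 676, 208 and 1032 CPM in KO gd10.5, 2506, 62.3 and 23.3 CPM in WT gd16.5 and 2295, 3735 and 41.4 CPM in KO gd16.5. Both genes were high in the same 7 libraries, and the low libraries of these groups lay within or below the range of the gd14.5 and gd19.5 libraries.

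*Apoa2*, another protein of high-density lipoprotein, was at 34.0, 0.243 and 0.338 CPM in WT gd10.5 and at 58.8, 106 and 1.82 CPM in KO gd16.5. *Apoa4*, an apolipoprotein that yolk sac, intestine and liver make, was at 48.6, 0.270 and 0.211 CPM in WT gd10.5 and at 123, 503 and 5.33 CPM in KO gd16.5. *Apom*, which carries the lipid mediator sphingosine-1-phosphate, was at 55.8, 0.324 and 0.381 CPM in WT gd10.5 and at 49.0, 129 and 1.64 CPM in KO gd16.5. In the WT libraries of gd10.5 other than replicate 1, these 3 genes rested on 5 to 12 counts each.

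*Cubn* encodes cubilin, a large receptor that takes up protein ligands, among them apolipoprotein A-I and vitamin B12 bound to intrinsic factor, and *Amn* encodes amnionless, the small partner that anchors cubilin in the membrane. *Cubn* was at 291, 3.08 and 4.35 CPM in WT gd10.5, 299, 48.3 and 410 CPM in KO gd10.5, 181, 10.4 and 11.8 CPM in WT gd16.5 and 144, 267 and 11.6 CPM in KO gd16.5. *Amn* was at 16.6, 0.243 and 0.381 CPM in WT gd10.5, 16.7, 3.69 and 22.5 CPM in KO gd10.5, 8.51, 0.309 and 0.0973 CPM in WT gd16.5 and 5.18, 16.6 and 0.228 CPM in KO gd16.5. The receptor genes were high in the same libraries as the secreted proteins. At gd14.5 and gd19.5 *Amn* rested on 0 to 10 counts per library, and the library with 0 counts, KO gd19.5 replicate 1, allows up to 0.131 CPM.

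Per kilobase of exon, *Afp* was the highest of the 10 genes in 7 libraries and *Rbp4* in the other 17. The 7 were WT gd10.5 replicate 1, all 3 KO libraries of gd10.5, WT gd16.5 replicate 1 and KO gd16.5 replicates 1 and 2. In those 7, *Afp* made up between 35.4% and 57.2% of the summed level per kilobase, and *Rbp4* between 2.61% and 12.6%. In WT gd16.5 replicate 3 the shares were 8.66% for *Afp* and 80.8% for *Rbp4*. The ratio of *Apoa1* to *Afp* moved little by comparison, with 23.1 to 51.9 units of *Apoa1* per 100 of *Afp* on this scale in the 18 libraries up to gd16.5 and 49.4 to 84.0 at gd19.5. The ratio of *Cubn* to *Apob* differed between stages among the high libraries: it was 6.75, 5.85 and 6.68 per 100 in WT gd16.5 replicate 1 and KO gd16.5 replicates 1 and 2, and 30.8, 41.3, 21.7 and 37.1 per 100 in WT gd10.5 replicate 1 and the KO gd10.5 libraries. That difference was not tested, since the libraries were set apart by their levels.

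**Figure D2:**
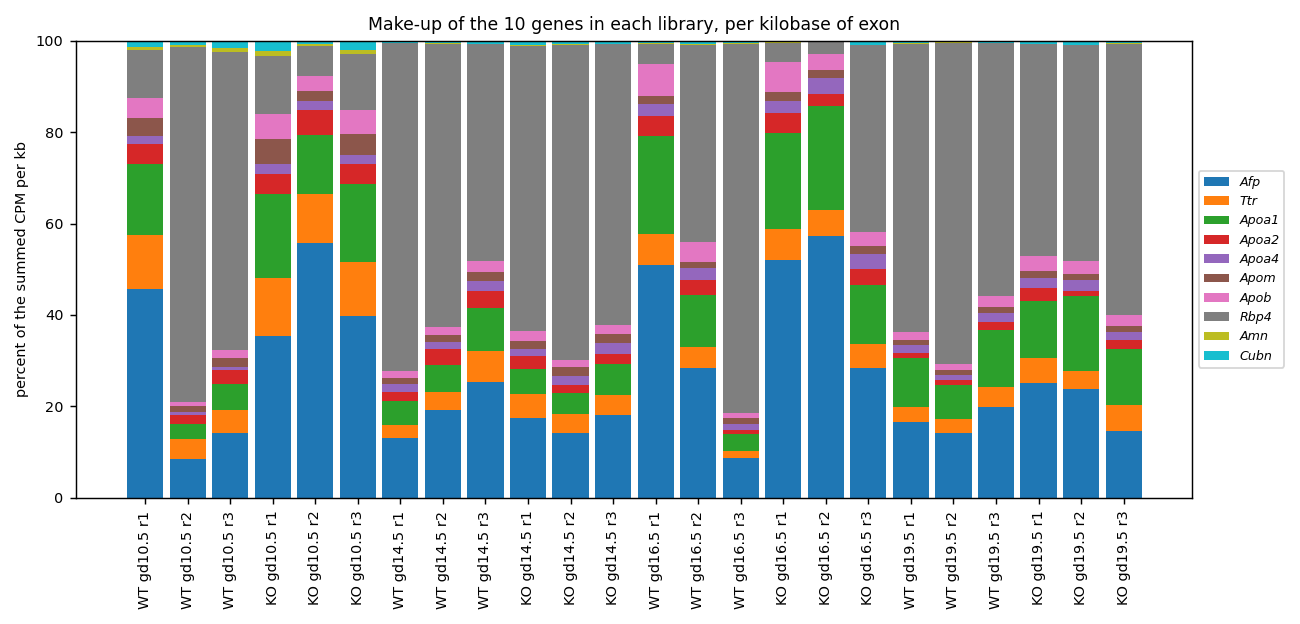
Share of each gene in the summed CPM per kilobase of exon of the 10 genes (y, in percent), 1 stacked bar per library (x). *Afp* (blue) is the largest part in 7 libraries, with 35.4% to 57.2%, and *Rbp4* (grey) in the other 17.

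The promoters of the 10 genes are shown next for the members in which a searched motif was found, because the genes moved together across libraries. RefSeq promoters of build GRCm38.p6, from 250 bases before the start site to 50 bases after it, matched 9 of the 10 genes, and *Ttr* had no entry. Capitals mark matches, on either strand, to a half-site of HNF1 factors, a FOXA motif and a TATA box, whose letters are given below and whose matches do not overlap here. The regions are chr5:90490464-90490763 on the plus strand for *Afp*, chr1:171224804-171225103 on the plus strand for *Apoa2*, chr12:7977427-7977726 on the plus strand for *Apob* and chr19:38125272-38125571 on the minus strand for *Rbp4*, each printed in the direction of the gene.
Afp: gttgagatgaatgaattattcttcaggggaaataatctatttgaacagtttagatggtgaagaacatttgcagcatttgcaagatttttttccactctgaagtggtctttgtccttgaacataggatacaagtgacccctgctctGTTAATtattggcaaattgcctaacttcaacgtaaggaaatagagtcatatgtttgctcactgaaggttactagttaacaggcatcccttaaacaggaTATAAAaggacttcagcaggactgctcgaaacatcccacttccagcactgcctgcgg
Apoa2: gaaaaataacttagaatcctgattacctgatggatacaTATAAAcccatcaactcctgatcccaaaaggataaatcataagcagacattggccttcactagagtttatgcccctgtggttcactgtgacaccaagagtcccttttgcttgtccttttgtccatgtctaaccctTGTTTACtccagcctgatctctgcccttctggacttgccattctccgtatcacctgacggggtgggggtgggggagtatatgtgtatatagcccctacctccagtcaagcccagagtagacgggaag
Apob: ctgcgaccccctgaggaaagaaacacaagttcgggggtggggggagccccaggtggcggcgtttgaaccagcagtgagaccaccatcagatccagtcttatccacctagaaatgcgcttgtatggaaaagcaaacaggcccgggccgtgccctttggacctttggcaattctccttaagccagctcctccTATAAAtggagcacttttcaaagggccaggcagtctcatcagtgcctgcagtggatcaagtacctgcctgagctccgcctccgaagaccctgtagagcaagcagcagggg
Rbp4: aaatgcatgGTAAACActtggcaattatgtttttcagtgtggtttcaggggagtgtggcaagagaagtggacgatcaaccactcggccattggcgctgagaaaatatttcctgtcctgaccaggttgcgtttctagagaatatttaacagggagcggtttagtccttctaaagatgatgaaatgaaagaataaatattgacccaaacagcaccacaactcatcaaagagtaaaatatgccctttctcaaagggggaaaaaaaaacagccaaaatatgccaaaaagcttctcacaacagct

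The HNF1 half-site, searched as GTTAAT, was found in 1 of the 9 promoters, that of *Afp*, at position -105 from the RefSeq start site, where 7.1% of 32851 promoters of the same length held it. The FOXA motif was in 2 of the 9, at -77 in *Apoa2* and, on the opposite strand, at -241 in *Rbp4*, where 3.65% of all promoters held its letters, TGTTTAC. The letters of a TATA box were in 3 of the 9, at -7 in *Afp*, -60 in *Apob* and -212 in *Apoa2* from the RefSeq start site, or -30, -31 and -212 from the gene start of the deposited table, and the match in *Apoa2* is not at the usual place of a TATA box. Of all promoters, 13.6% held TATAAA. Motifs of HNF4 factors (CAAAGTCC) and of GATA factors were in none of the 9, and 1.42% of all promoters held the former and 11.2% the latter, searched as AGATAA. A match or its absence describes only these letters in this window. In the deposited table *Afp* lies at chr5:90490737-90508907, *Apoa1* at chr9:46228580-46230466, *Apoa4* at chr9:46240696-46243459 and *Rbp4* at chr19:38116629-38125281 of GRCm38. All 10 are protein-coding genes, and *Apoa1* and *Apoa4* are neighbours on chromosome 9. Genes on the opposite strand overlap the spans of *Afp* (*Gm43449*, up to 10.47 CPM), *Apoa4* (*Gm47528*, up to 0.647 CPM) and *Cubn* (*Gm13270*, up to 1.84 CPM). Reads were counted without strand, and whether exons are shared was not tested.

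The spread between the libraries of one group was the most marked feature of these genes. The standard deviation of log2 CPM over 3 libraries had a median over the 10 genes of 4.23 in WT gd10.5, 3.29 in WT gd16.5 and 3.33 in KO gd16.5, where the median of all 19299 genes tested was 0.185, 0.182 and 0.169. In WT gd10.5 *Afp* had the 4th and *Apoa1* the 7th largest spread of all genes tested. The highest library exceeded the lowest by over 10-fold for 10 of 10 genes in WT gd10.5 and for 9 of 10 in each group of gd16.5, against 2.5%, 2.01% and 2.21% of all genes tested. *Afp* reached 332-fold in WT gd10.5, 114-fold in WT gd16.5 and 165-fold in KO gd16.5. *Rbp4* was the member under 10-fold at gd16.5, with 2.65-fold in WT and 5.25-fold in KO. Over the pair of libraries left without replicate 1, the median standard deviation was 0.352 in WT gd10.5 and 0.885 in WT gd16.5, against 0.174 and 0.173 for all genes tested, and 0 genes passed 10-fold. In KO gd16.5 it was 4.52 without replicate 1 and 3.49 without replicate 2, each of which leaves 1 high library, and no spread can be had without both.

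In the other groups the spread was smaller. The median standard deviation of the 10 genes was 1.11 in KO gd10.5, 0.512 in WT gd14.5, 0.232 in KO gd14.5, 0.576 in WT gd19.5 and 0.294 in KO gd19.5, and the medians over all genes tested were 0.275, 0.120, 0.136, 0.139 and 0.143. The members' median was thus above that of all genes tested in each of the 8 groups, although in KO gd14.5 *Afp* and *Apom* lay below it, with 0.129 each. In KO gd10.5 the largest ratio between libraries was 8.50-fold, for *Cubn*, and none of the 10 genes passed 10-fold. Which library was high was the same for all 10 genes in 5 groups: replicate 1 in WT gd10.5, replicate 3 in KO gd10.5, replicate 1 in WT gd16.5, replicate 2 in KO gd16.5 and replicate 3 in WT gd19.5. Replicate 2 was the lowest of KO gd10.5 and replicate 3 the lowest of KO gd16.5 for all 10. In both groups of gd14.5 and in KO gd19.5 the highest library differed between genes.

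**Figure D3:**
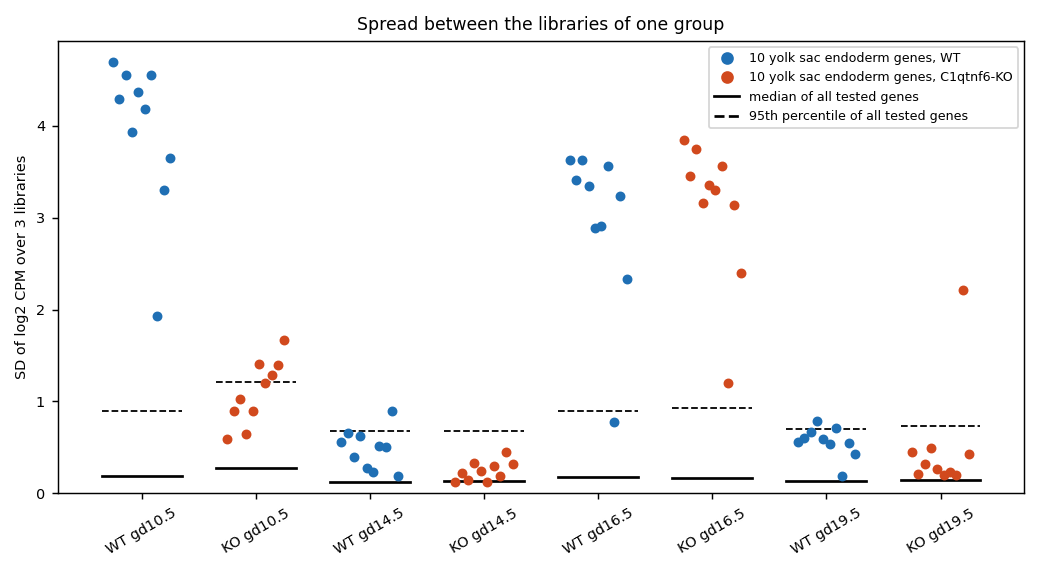
Standard deviation of log2 CPM over the 3 libraries of a group (y) in each of the 8 groups (x), with 1 point per gene of the 10, set beside the median and the 95th percentile of all 19299 genes tested. In WT gd10.5 and KO gd16.5 all 10 genes, and in WT gd16.5 9 of 10, lie above the 95th percentile.

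The deviation of a gene from its group mean, taken over the 24 libraries, described how closely the 10 genes moved together. Each gene's deviation was correlated with the mean deviation of the other 9, with Pearson's r between 0.974 and 0.996 for 8 of them, 0.912 for *Amn* and 0.812 for *Rbp4*. The points share the library and its depth, and the few high libraries carry most of the range, so these values are given as a description. Over the 15 libraries of the 5 groups other than WT gd10.5, WT gd16.5 and KO gd16.5, r ran from 0.549 for *Amn* to 0.953 for *Apob*, with a median of 0.884. Over the 12 libraries of gd14.5 and gd19.5 alone it ran from 0.194 for *Rbp4* to 0.878 for *Apoa1*, with a median of 0.726. Over 19289 other genes the median r with the members was -0.0242, and 96 genes (0.498%) had an r over 0.9. The 10 genes most alike by this measure were *Spp2* (r = 0.990), *Cdhr2*, *Cfi*, *Fga*, *Fgg*, *Fgb*, *Serpina1b*, *Serpind1*, *Bex2* and *Cpn1* (r = 0.977). *Spp2* was at 42.5, 0.108 and 0.169 CPM in WT gd10.5, 25.8, 13.7 and 40.3 CPM in KO gd10.5, 71.8, 1.63 and 0.389 CPM in WT gd16.5 and 69.6, 216 and 1.78 CPM in KO gd16.5. Over the 8 group means, the genes most alike were *Lrp2* (r = 0.992), *Fgg*, *Spp2*, *Cdhr2*, *Smarca1*, *Fgb*, *Cfi*, *Fga*, *Rnf138rt1* and *Hnf4a* (r = 0.980). *Spp2*, *Cdhr2*, *Cfi* and the 3 fibrinogen genes were in both lists.

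The study compared C1qtnf6-KO with WT at each stage, with DESeq2 and the same 2 limits as here. A gene was called when its adjusted p-value in edgeR's quasi-likelihood test (Benjamini-Hochberg, over all genes tested) was under 0.05 and its absolute log2 fold change over 1. At gd10.5, 0 of the 10 genes were called, where 0.00572% of all genes tested were. Their log2 fold changes, KO over WT, were all above 0, from 0.75 ± 1.86 (SE) for *Afp* to 1.33 ± 1.67 for *Cubn*, with a median of 1.02 against 0.01 for all genes tested and an adjusted p of 1.00 for each in edgeR's test. The ranges of the genotypes overlapped for each gene, while 4.18% of all genes tested did not overlap. DESeq2 also called 0, and 0 had an unadjusted p under 0.05. Over all genes, DESeq2 called 47 at gd16.5 and 18 at gd19.5, where edgeR called 1 and 4.

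The size of the gd10.5 fold changes depended on 1 library, the high one of WT. Without WT gd10.5 replicate 1 they were larger: KO over WT was 7.31 for *Afp*, 7.36 for *Apob*, 6.11 for *Cubn* and 2.77 for *Rbp4* on the log2 scale, and edgeR's adjusted p lay between 0.0930 and 0.710, so that 0 genes were called. Without KO gd10.5 replicate 2, the library with the high *Tpbpa* level, the log2 fold change was 0.97 for *Afp* and 1.82 for *Cubn*, and 0 genes were called.

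At gd14.5, where no library stood out for the 10 genes, the log2 fold changes were below 0 for each of the 9 genes tested, and 0 were called (0.0166% of all genes tested). *Amn* did not pass the expression filter. *Apoa1* had the smallest adjusted p, with 5.34, 8.45 and 8.75 CPM in WT and 4.25, 3.86 and 4.71 CPM in KO, which did not overlap, a log2 fold change of -0.81 ± 0.18 (SE) and an adjusted p of 0.517 in edgeR's test. *Afp* was at -0.75 ± 0.21 with an adjusted p of 0.648 and *Cubn* at -0.01 ± 0.16 with an adjusted p of 0.993 by the same test. The unadjusted p was under 0.05 for 4 of the 9 genes (*Afp*, *Apoa1*, *Apoa2* and *Rbp4*), and DESeq2 called 0. The share of all genes tested with such a p is not given here. The genotypes did not overlap for 2 genes, *Apoa1* and *Apom*, or 2 of 9, where 12.5% of all genes tested did not overlap. Without WT gd14.5 replicate 1, which held the least *Afp* of the WT libraries, *Afp* was called with a log2 fold change of -1.004 and an adjusted p of 0.0178 in edgeR's test.

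At gd16.5 the log2 fold changes were again all above 0, with a median of 1.59 against 0.01 for all genes tested, and 0 of 10 were called (0.00586% of all genes tested) while 17.7% of all genes tested did not overlap between genotypes and none of the 10 did so. *Apoa4* had the largest log2 fold change, 2.27 ± 1.64 (SE), and the smallest adjusted p, 0.571, in edgeR's test. *Afp* was at 2.08 ± 1.91 and *Rbp4* at 0.36 ± 0.57. The unadjusted p was under 0.05 for 0 genes, and DESeq2 called 0. High libraries numbered 1 in WT and 2 in KO. Without WT gd16.5 replicate 1 the log2 fold change of *Afp* was 6.58, with an adjusted p of 0.352 in edgeR's test, and without KO gd16.5 replicate 2 it was 0.56. In the latter fit *Rbp4* was at -0.32 and *Amn* at -0.16. No gene was called in either.

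At gd19.5, 0 of the 9 genes tested were called (0.023% of all genes tested). *Rbp4* came closest, and it was the 1 gene of the 10 whose genotypes did not overlap, where 21.4% of all genes tested did not. The WT mean of 155 ± 20.4 CPM compared with a KO mean of 86.5 ± 12.2 CPM (SD, n = 3), a log2 fold change of -0.87 ± 0.12 (SE) with an adjusted p of 0.0436 in edgeR's test, which passes the limit on p but not that on the fold change. With each of the 6 libraries left out in turn the log2 fold change stayed between -0.97 and -0.75, while the adjusted p in edgeR's test ran from 0.0704 to 0.166. DESeq2 gave an adjusted p of 7.37e-09, and a fit of all 24 libraries in edgeR gave 0.806. The other 8 genes lay between -0.38 for *Apom* and 0.13 for *Cubn*, with standard errors of 0.24 to 0.40 and adjusted p-values of at least 0.576 in edgeR's test, and DESeq2 called 0 of the 9. The carrier that holds *Rbp4* protein, *Ttr*, was at -0.18 ± 0.27. The only gene of the 9 with an unadjusted p under 0.05 was *Rbp4*.

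The genotype effect did not differ detectably between stages. The interaction of genotype and stage over all 24 libraries called 0 of the 10 genes and 0% of the 19299 genes tested at an adjusted p under 0.05 in edgeR's quasi-likelihood test, and DESeq2 called 0 of the 10. The unadjusted p of the members lay between 0.380 for *Rbp4* and 0.863 for *Amn*, and 1396 of all genes tested had one under 0.05 in that edgeR test.

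**Figure D4:**
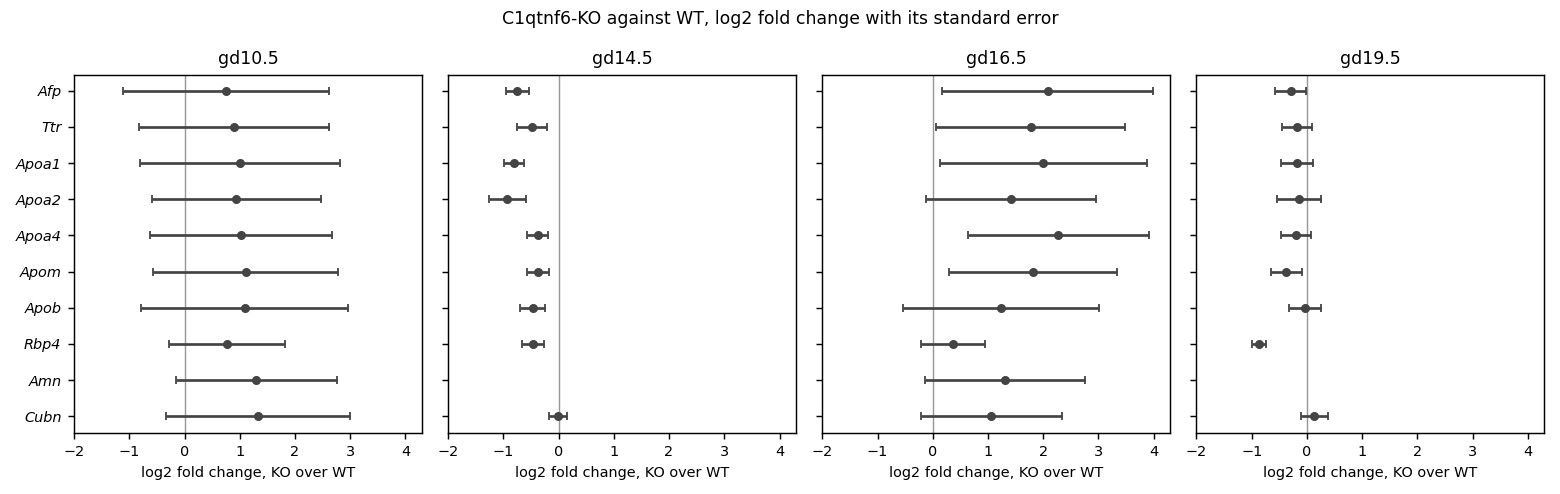
Log2 fold change of C1qtnf6-KO over WT (x) with its standard error (bars) for each gene (y) at the 4 stages (panels). The bars reach 1.87 at gd10.5 and 1.91 at gd16.5, and *Rbp4* at gd19.5 (-0.87 ± 0.12) is the gene with an adjusted p under 0.05 in edgeR's quasi-likelihood test.

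Levels were then compared between successive stages within a genotype, in 1 fit of all 24 libraries. In KO, 9 of the 10 genes fell from gd10.5 to gd14.5, where 11% of all genes tested were called lower and 9.09% higher. The fall was largest for *Amn*, with a log2 fold change of -6.48 ± 1.73 (SE) and an adjusted p of 0.00408 in edgeR's test. *Amn* had 7, 5 and 3 counts in the KO gd14.5 libraries and did not pass the filter in the fit of gd14.5 alone. The size of its fall thus rests on few counts. The change was -5.18 ± 1.88 for *Afp*, -5.47 ± 1.88 for *Apoa1* and -5.13 ± 1.48 for *Cubn*. *Rbp4* was at -1.38 ± 0.72 with an adjusted p of 0.116 by that test. Leaving out KO gd14.5 replicate 1, 2 or 3 reduced the count to 4, 3 and 3, and without KO gd10.5 replicate 1, 2 or 3 it was 8, 10 and 6.

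From gd14.5 to gd16.5 the same 9 genes rose in KO, where 5.36% of all genes tested were called higher and 3.25% lower. *Apoa1* changed by 7.80 ± 2.06 on the log2 scale, with an adjusted p of 0.00994 in edgeR's test, *Afp* by 7.54 ± 2.10, *Apoa4* by 6.56 ± 1.70 and *Cubn* by 4.29 ± 1.43. *Rbp4* was at 1.52 ± 0.72 with an adjusted p of 0.136. Without KO gd16.5 replicate 1, 8 genes were called, and without replicate 2, the highest library of all, 5. Without both, which leaves 1 library in that group, 0 genes were called, and *Afp* was at 1.38, *Apoa1* at 1.82, *Cubn* at 0.69 and *Rbp4* at -0.064. Without KO gd14.5 replicate 1, 2 or 3 the counts were 3, 2 and 4. From gd16.5 to gd19.5, 1 gene fell in KO, *Apoa4*, by 5.42 on the log2 scale (SE 1.59, adjusted p of 0.0482 in edgeR's test), where 1.45% of all genes tested were called lower. For that step 9 of 10 genes had an unadjusted p under 0.05, and DESeq2 called 8, beside 510 of all genes in either direction. With no expression filter edgeR called 8, and 0 were called with the replicate number as a block. For the unadjusted p and the fit with no filter, no share of all genes is given here. *Apoa4* was not called without KO gd16.5 replicate 1 or 2 or without any 1 of the KO gd19.5 libraries (0 genes each), and 4 genes were called without KO gd16.5 replicate 3.

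In WT, where 1 library carried the high level at gd10.5 and 1 at gd16.5, fewer genes were called. *Amn* and *Cubn* fell from gd10.5 to gd14.5, with log2 fold changes of -4.84 ± 1.67 (SE) and -3.78 ± 1.41 and adjusted p-values of 0.0197 and 0.0291 in edgeR's test, where 11.9% of all genes tested were called lower. *Amn* had 482, 9 and 9 counts in the WT gd10.5 libraries and 3, 10 and 6 in those of gd14.5. Most of its fall thus lay in WT gd10.5 replicate 1 and was measured against few counts. *Afp* was at -3.67 ± 1.75 with an adjusted p of 0.0833 in edgeR's test. Without WT gd10.5 replicate 1 the change turned to 2.86 for *Afp*, 2.69 for *Apoa1* and 0.99 for *Cubn*, and 1 gene was called. Without WT gd10.5 replicate 2 or 3, 7 were called, and without WT gd14.5 replicate 1, 2 or 3 the counts were 0, 0 and 1.

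The later steps in WT called 0 genes. From gd14.5 to gd16.5 the smallest adjusted p was 0.0541, for *Apob* (log2 fold change 5.21 ± 1.83), in edgeR's test. Of all genes tested, 2.78% were called higher and 2.32% lower. For that step 9 of 10 genes had an unadjusted p under 0.05, and DESeq2 called 8, beside 978 of all genes in either direction. No share of all genes is given here for the unadjusted p, at this step or the next. Without WT gd16.5 replicate 1, the high library, 0 genes were called, and the log2 fold change was -0.19 for *Ttr*, -0.20 for *Apoa2*, 0.25 for *Afp* and 0.89 for *Apob*. Without WT gd16.5 replicate 2 or 3, 1 and 2 genes were called. From gd16.5 to gd19.5 *Afp* was at -3.82 ± 1.76 with an adjusted p of 0.222, 4 of 10 genes had an unadjusted p under 0.05, DESeq2 called 0, and 0.57% of all genes tested were called lower. Without WT gd16.5 replicate 1 the change of *Afp* turned to 0.66 and that of *Apoa1* to 1.20. The steps of 1 genotype share the libraries of the stage between them.

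Other genes of the yolk sac endoderm were read from a list of 26, of which 24 passed the expression filter over the 24 libraries and 9 stand in another list as well. Genes of the lists were counted as higher or lower by the same call rule of edgeR's test. In KO, 11 fell and 2 rose from gd10.5 to gd14.5, and 10 rose and 0 fell from gd14.5 to gd16.5. The shares of all genes tested at these steps are those given for KO above. In WT, 4 of the 24 were lower and 3 higher from gd10.5 to gd14.5, where 11.9% of all genes tested were lower and 2036 of 19299 higher, and 1 was higher at the next step, where 2.78% of all genes were. These WT counts are near the shares of all genes. Without KO gd16.5 replicates 1 and 2, edgeR called 0 of the 25 genes then tested higher in KO from gd14.5 to gd16.5. At the first step in KO, *Slc2a2*, a glucose transporter, and *Tdh*, a threonine-degrading enzyme, had log2 fold changes of -6.35 and -6.28. *Apoc3*, an apolipoprotein of triglyceride-rich particles, was called lower from 0.635, 0.152 and 1.52 CPM to 0 counts in each KO library of gd14.5, and *Gjb1*, a gap junction protein, from 3.32, 0.913 and 4.22 CPM to at most 0.0515 CPM. *Spink1*, a secreted protease inhibitor, was called higher in KO at the next step, from at most 0.115 CPM to 10.4, 30.8 and 0.319 CPM, and *Gjb1* reached 3.68, 13.1 and 0.182 CPM. The low ends of *Spink1* and *Gjb1* were at or under 3 counts, so no fold change is given for them. *Trf*, the iron carrier transferrin, was the most abundant of the list and was at 1211, 220 and 280 CPM in WT gd16.5 and at 1144, 3598 and 290 CPM in KO gd16.5. *Apoe* was at 153, 69.1 and 60.8 CPM and at 123, 306 and 85.1 CPM in the same groups. *Slc13a4*, a sulfate transporter, and *Stra6*, a receptor for retinol-binding protein, rose from gd10.5 to gd14.5 in both genotypes, and their deviations had an r of -0.267 and -0.564 with the members. *S100g*, a calcium-binding protein, also rose at that step in WT, by 1.90 on the log2 scale, and had an r of 0.647. Of the 24 genes, 9 had an r over 0.9 and 20 an r over 0.5, against 0.498% and 6.1% of all genes tested. Over the 12 libraries of gd14.5 and gd19.5 alone, 0 had an r over 0.9 and 7 an r over 0.5, against 0.0363% and 7.4%.

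Among 14 endoderm transcription factor genes (13 tested), *Hnf4a*, a regulator of liver and visceral endoderm genes, was at 35.5, 0.351 and 0.423 CPM in WT gd10.5 and at 13.04, 52.3 and 3.97 CPM in KO gd16.5. In KO *Hnf4a* fell by 3.60 on the log2 scale at the step to gd14.5 and then rose by 3.45 at the step to gd16.5. It was at 2.33, 1.78 and 2.33 CPM in KO gd14.5, so most of the rise lay in KO gd16.5 replicates 1 and 2. *Foxa3* fell by 2.42 and rose by 2.27 at the same steps. *Eomes*, which NK cells also express, fell at both. *Sox17*, *Cebpa* and *Sox7*, 3 of the 4 most abundant of the list, had an r of 0.114, 0.211 and -0.362 with the members, and *Gata4* one of 0.818. Over the list, 8 of 13 genes had an r over 0.5.

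Other genes of the members' pathways are counted at the step from gd14.5 to gd16.5 in KO, where 5.36% of all genes tested were called higher and 3.25% lower. Of 19 lipoprotein genes, 16 were tested, 5 rose and 1 fell, and without KO gd16.5 replicates 1 and 2, 1 of 18 tested rose. Those that rose included *Apoe*, an apolipoprotein that binds lipoprotein receptors, by 2.27 on the log2 scale and *Lpl*, the lipoprotein lipase gene, by 1.26. *Apoe*, *Apoc1* and *Apoh* rose as genes of the yolk sac endoderm list as well, so they are counted in both. The abundant receptor genes *Lrp1* and *Vldlr* and the lipid exporter gene *Abca1* had an r between -0.234 and 0.0642 with the members. Of 15 retinoid genes, 1 rose at that step, *Rbp2*, a cellular retinol-binding protein of absorptive epithelium, by 5.99, a share near that of all genes tested, and 1 of 15 had an r over 0.5. Of 14 genes of the endocytic apparatus, 4 rose and 1 fell. Among those that rose, *Lrp2* and *Dab2* are also counted in the yolk sac endoderm list. *Lrp2*, which encodes megalin, the receptor that works with cubilin, rose by 4.11. It was at 80.5, 0.890 and 3.51 CPM in WT gd10.5 and at 63.7, 172 and 9.03 CPM in KO gd16.5. In KO gd14.5 it was at 4.53, 5.31 and 4.32 CPM, so most of the rise lay in KO gd16.5 replicates 1 and 2. *Lrpap1*, *Cd320*, *Tcn2* and *Rab11a*, the most abundant of that list, had an r between -0.426 and 0.391.

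C1qtnf6-KO against WT called no gene of these or the marker lists. Of 171 listed genes beside the members, 149, 139, 142 and 134 were tested at the 4 stages in order, and 0 were called at each stage by edgeR. An unadjusted p under 0.05 was found for 0, 20, 27 and 31 of them. The share of all genes with such a p is not given here, so these counts are not read as a result about the lists. Over all genes tested, the genotypes did not overlap for 4.18%, 12.5%, 17.7% and 21.4% at these stages. DESeq2 called 4 at gd16.5 (*Prf1*, *Gzmc*, *Gzmb* and *Prl3d1*, named here after their values were seen), which are no yolk sac genes, and 0 at the other stages.

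Markers of other cell types were read in the same libraries, since the fetal liver makes most of the same secreted proteins. Of 15 fetal liver genes, 13 were tested, and their summed level lay between 5.59 and 271 CPM in WT gd10.5, 112 and 256 CPM in KO gd10.5, 30.3 and 82.9 CPM in WT gd14.5, 28.5 and 43.2 CPM in KO gd14.5, 49.5 and 486 CPM in WT gd16.5, 60.6 and 2106 CPM in KO gd16.5, 44.1 and 56.0 CPM in WT gd19.5 and 49.3 and 61.2 CPM in KO gd19.5. It was highest in the libraries that were highest for the 10 genes at gd10.5 and gd16.5. In KO, 11 of the 13 rose from gd14.5 to gd16.5, and 0 of the 14 then tested were called without KO gd16.5 replicates 1 and 2. At that step in KO, 5.36% of all genes tested were called higher. Of the 13, 11 had an r over 0.5 with the members and 6 an r over 0.9, against 6.1% and 0.498% of all genes tested. Over the 12 libraries of gd14.5 and gd19.5 alone, 6 had an r over 0.5 and 0 an r over 0.9, against 7.4% and 0.0363%.

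The liver genes did not move as one. The fibrinogen gene *Fga* was at 90.8, 0.513 and 0.507 CPM in WT gd10.5 and at 93.2, 249 and 2.05 CPM in KO gd16.5, with an r of 0.987. *Alb*, the albumin gene, was at 3.61, 0.162 and 0.0846 CPM in WT gd10.5 and at 0.149, 16.8 and 0.865 CPM in KO gd10.5, beside 2211, 6.66 and 9.43 CPM and 1032, 868 and 1892 CPM of *Afp*. In WT gd10.5 it was highest in the library highest for *Afp*, and in KO gd10.5 it was highest in the library lowest for *Afp*. At gd16.5 *Alb* was at 164, 1.19 and 1.07 CPM in WT and at 150, 1027 and 2.87 CPM in KO, high in the same libraries as the 10 genes. It was also at 37.3 CPM in WT gd14.5 replicate 2, against 1.74 and 2.90 CPM in the other WT libraries of gd14.5. Of the enzymes that define hepatocytes, *Cps1* was among those that rose, from at most 0.115 CPM in KO gd14.5 to 3.58, 2.77 and 0.0456 CPM in KO gd16.5, and was at 3.97 CPM in WT gd16.5 replicate 1 and no higher elsewhere. *Hpd* did not exceed 0.447 CPM in any library, and *Cyp3a16* had at most 3 counts in each. *Alb*, *Fga*, *Cps1* and *Hpd* were named here after their values were seen. The part of liver RNA in the levels of the 10 genes was not tested.

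The remaining lists are given by their sums and their r with the members. The 12 genes of the parietal endoderm and Reichert's membrane, the other endoderm of the yolk sac region, summed to between 8228 and 13662 CPM in the 24 libraries, with *Col4a1*, *Sparc*, *Srgn* and *Col4a2* the most abundant, and 10 of 12 had an r below 0 with the members. The 7 genes of yolk sac and allantois mesoderm and mesothelium summed to between 435 and 487 CPM at gd10.5, 757 and 937 CPM at gd14.5, 757 and 1148 CPM at gd16.5 and 1280 and 1635 CPM at gd19.5. *Upk3b*, a mesothelial gene, was the 1 of these 7 with an r over 0.5 (0.917). Embryonic nerve and muscle genes summed to between 22.5 and 117 CPM, with *Dcx*, *Neurod1* and *Myog* at no more than 3 counts in each library, and intestine and kidney genes to between 11.6 and 37.8 CPM. *Fabp2*, an intestinal fatty acid-binding protein, was the 1 of 6 of the latter with an r over 0.5 (0.827). It was at 0.747, 0.0761 and 0.726 CPM in KO gd10.5 and at most 0.0315 CPM in KO gd14.5. In KO gd16.5 it was at 0.348, 1.51 and 0.0456 CPM, and in KO gd19.5 at most 0.0341 CPM. *Fabp2* was called at each of these steps, but its levels at gd14.5 and gd19.5 lay under 3 counts. The calls therefore rest on the libraries high for the 10 genes, and no fold change is given. *S100g* and *Fabp2* were named after their values were seen. The median r with the members was -0.0423 for 6 spongiotrophoblast and giant cell genes, -0.491 for 6 labyrinth genes, 0.0881 for 6 decidual stroma genes, -0.0474 for 6 NK cell genes, 0.196 for 5 smooth muscle genes, -0.272 for 3 primitive and -0.0477 for 6 definitive red cell genes.

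Y-linked transcripts, which only a male fetus can supply, also differed between libraries. The summed level of *Ddx3y*, *Eif2s3y*, *Kdm5d* and *Uty*, read after other values had been seen, was 89.1 CPM in WT gd16.5 replicate 1 and 194 and 188 CPM in KO gd16.5 replicates 1 and 2, against at most 1.14 CPM in the other 3 libraries of gd16.5, so that at gd16.5 the libraries with Y-linked transcripts were those with high levels of the 10 genes. At gd10.5 it was otherwise: WT replicate 1 and KO replicates 1 and 3, all high for the 10 genes, held 0.0688, 0.0373 and 0.311 CPM, and KO replicate 2 held 71.0 CPM. At gd14.5 and gd19.5, 5 libraries held between 40.0 and 170 CPM without a high level of the 10 genes. The part of fetal sex in the levels of the 10 genes was not tested.

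**Figure D5:**
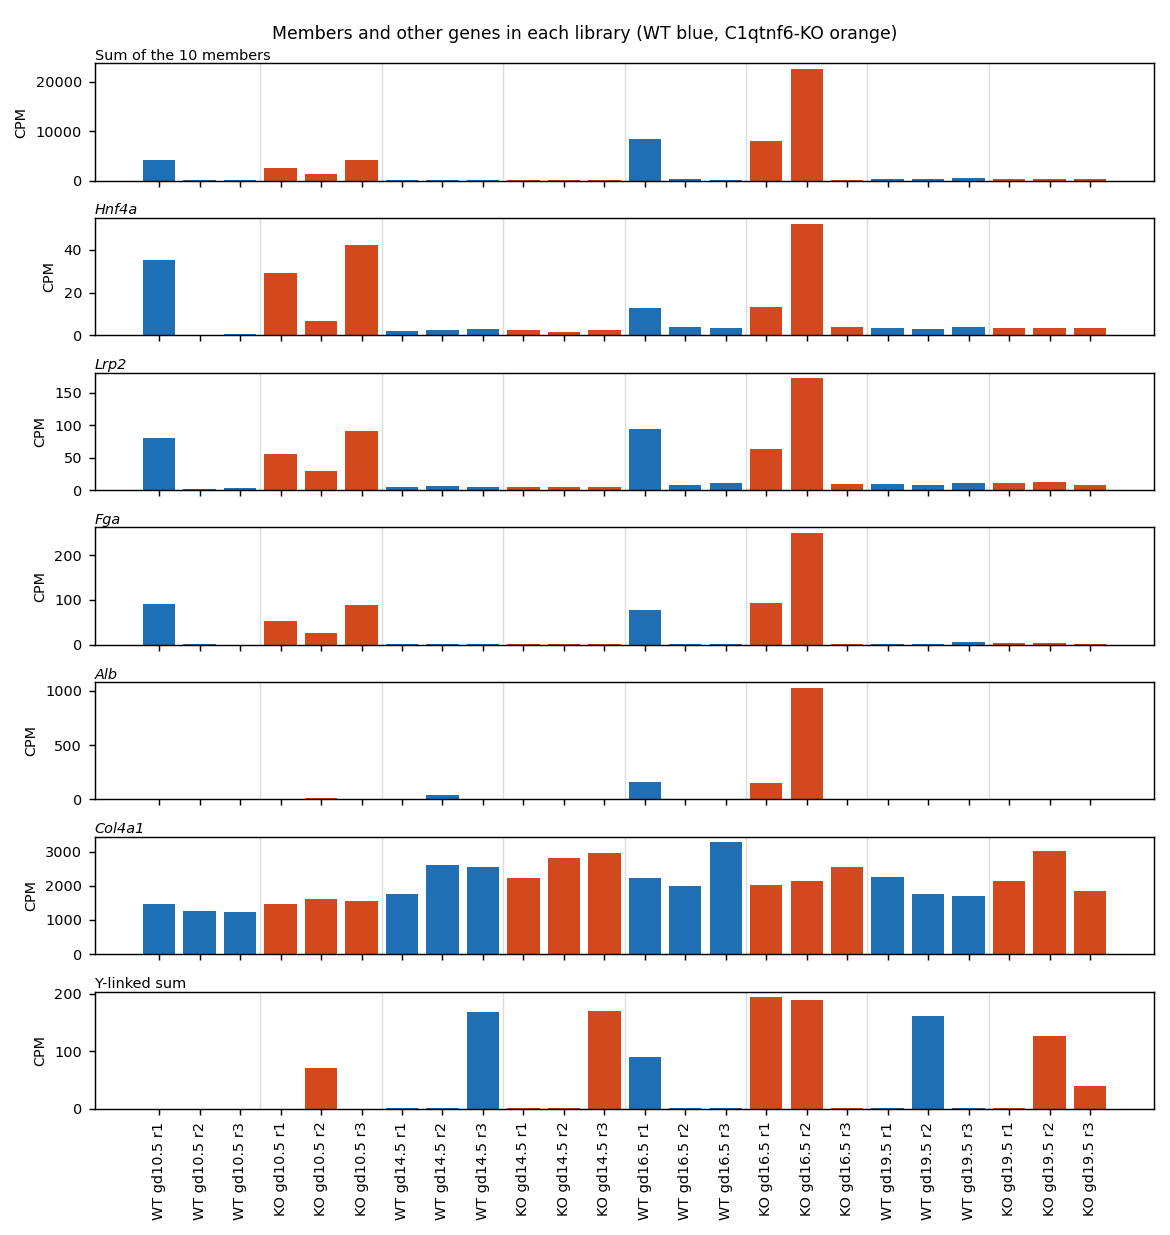
CPM (y, linear axes from 0) in each of the 24 libraries (x, WT blue and C1qtnf6-KO orange) of the 10 genes summed, *Hnf4a*, *Lrp2*, *Fga*, *Alb*, *Col4a1* and the 4 Y-linked genes summed. *Hnf4a*, *Lrp2* and *Fga* are high in the libraries where the sum is high, *Alb* is high at gd16.5 (164, 150 and 1027 CPM) and at most 16.8 CPM at gd10.5, and *Col4a1* does not follow the sum.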

How the data were processed

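Per the paper and the processing notes, the authors trimmed the paired reads of stranded mRNA libraries with Trim Galore 0.6.4, aligned them to GRCm38 with STAR 2.7.3a and counted them per gene with featureCounts of Subread 2.0.0 at default settings, which ignores strand and leaves out reads mapped to several places. The deposited values are raw read counts, with each gene's exon length beside them. KO libraries are numbered 3 to 5 in their titles and 1 to 3 in their descriptions, which are used here.

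In R 4.3.3, edgeR 4.0.16 was used for TMM scaling, its filterByExpr step (minimum count 10, minimum total 15) and the quasi-likelihood test. CPM are counts per 1000000 of the scaled library size. KO was compared with WT in fits of the 6 libraries of a stage, and stages in 1 fit of 24 libraries. A call needed an absolute log2 fold change over 1 and p under 0.05 after Benjamini-Hochberg adjustment. Spread is the SD of log2 CPM (prior count 0.5). Alternatives were RLE size factors, no filter, at least 10 counts in every library, the replicate number as a block, each library left out, DESeq2 1.42.0, fits of other sets of libraries, no fold threshold, and for spread a prior count of 2 or unscaled totals. Chosen after seeing the data were fits without both high libraries of KO gd16.5, spreads without 1 library and correlations over fewer groups. Tested on simulated counts for KO against WT at gd16.5, edgeR recovered 200 of 200 changed genes (absolute log2 fold change 2). It made 2 false calls among 16829 genes. The simulation gave every gene the same dispersion, not the spread measured for the 10 genes. It therefore does not show what could be detected for them. Replicate libraries differed beyond counting error (chi-square per degree of freedom at least 8.02).

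The 10 genes and the lists were chosen with earlier results of these data known. Of each list the 4 most abundant genes and up to 4 called genes with the largest change are named, and others were named after their values were seen. A few genes of the lists entered the counts and are not reported here by name.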

Additional observations from a re-analysis of the deposited data

How the results depend on the processing

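The counts of called genes in KO against WT at gd10.5 and gd16.5 and for the interaction were 0 under each alternative run. At gd19.5, 1 gene (*Rbp4*) was called with no fold-change threshold. In WT gd14.5 against gd10.5, where 2 were called, the count was 7 with no expression filter and 7 with DESeq2, 1 with at least 10 counts in every library, and 0 in a fit of the 6 libraries of both groups. In WT gd16.5 against gd14.5, where 0 were called, it was 6 with no filter, 1 with the stricter filter, 8 with DESeq2 and 4 in the fit of 6 libraries. In KO gd14.5 against gd10.5 and in KO gd16.5 against gd14.5, where 9 were called, it was 5 with the stricter filter, which leaves fewer members in the test. In KO gd19.5 against gd16.5, where 1 was called, it was 8 with no filter, 8 with DESeq2 and 0 with the stricter filter. The cause of the other differences was not tested. Over all genes, DESeq2 called 4452 in WT gd14.5 against gd10.5, 978 in WT gd16.5 against gd14.5 and 510 in KO gd19.5 against gd16.5. For the fits with no filter, no share of all genes is given here. The 24 values of spread tried under other priors and scalings moved by less than the spread of replicates.

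Libraries were not treated as pairs in the main fits. Deviations of WT and KO libraries with the same number in the descriptions correlated between -0.379 and 0.356, with 3 of 12 pairs over 0.1. These values cannot show whether samples were paired, and pairing by the numbers of the titles was not tested. With the replicate block, 0 genes were called in WT gd14.5 against gd10.5 and 0 in KO gd19.5 against gd16.5, the log2 fold change of *Apob* in KO against WT at gd19.5 was 0.069 and that of *Rbp4* in WT gd14.5 against gd10.5 was 0.073.

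With each library left out in turn, the number of the 10 genes called ran from 0 to 1 in KO against WT at gd14.5, from 0 to 7 in WT gd14.5 against gd10.5, from 0 to 2 in WT gd16.5 against gd14.5, from 3 to 10 in KO gd14.5 against gd10.5, from 2 to 9 in KO gd16.5 against gd14.5 and from 0 to 4 in KO gd19.5 against gd16.5. Single fold changes that turned sign had these lowest and highest log2 values. In KO against WT at gd14.5 they were -0.18 to 0.13 for *Cubn*. In KO against WT at gd16.5 they were -0.32 to 0.78 for *Rbp4* and -0.16 to 5.15 for *Amn*. In KO against WT at gd19.5 they were -0.50 to 0.11 for *Afp*, -0.37 to 0.26 for *Ttr*, -0.45 to 0.26 for *Apoa1*, -0.41 to 0.47 for *Apoa2*, -0.44 to 0.20 for *Apoa4*, -0.55 to 0.0081 for *Apom*, -0.29 to 0.49 for *Apob* and -0.16 to 0.30 for *Cubn*. In WT gd14.5 against gd10.5 they were -4.25 to 2.86 for *Afp*, -4.45 to 2.00 for *Ttr*, -4.21 to 2.69 for *Apoa1*, -3.56 to 2.36 for *Apoa2*, -3.08 to 3.53 for *Apoa4*, -4.27 to 2.06 for *Apom*, -4.25 to 2.59 for *Apob*, -0.62 to 1.83 for *Rbp4* and -4.35 to 0.99 for *Cubn*. In WT gd16.5 against gd14.5 they were -0.19 to 4.52 for *Ttr* and -0.20 to 4.39 for *Apoa2*. In WT gd19.5 against gd16.5 they were -4.39 to 0.66 for *Afp*, -3.70 to 1.01 for *Ttr*, -3.87 to 1.20 for *Apoa1*, -4.46 to 0.18 for *Apoa2*, -3.52 to 0.47 for *Apoa4*, -3.59 to 0.50 for *Apom*, -4.62 to 0.28 for *Apob*, -4.27 to 0.11 for *Amn* and -2.99 to 0.13 for *Cubn*.

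Chosen after seeing the data, the fit without KO gd16.5 replicates 1 and 2 called 0 genes in KO gd16.5 against gd14.5 and 0 in KO gd19.5 against gd16.5, and its lone library of that group is assumed to vary like the others. In it *Rbp4* was at -0.064 for the former step, and for the latter *Afp* was at 0.0077, *Ttr* at 0.39, *Apoa1* at 0.53, *Apob* at 0.33, *Rbp4* at 0.75 and *Cubn* at 0.23, all of which turned sign. With each library left out in turn, the members' median spread ran from 0.352 to 5.21 in WT gd10.5, 0.885 to 4.43 in WT gd16.5 and 0.988 to 4.52 in KO gd16.5.

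Depth limited *Amn*, which had 0 to 10 counts per library at gd14.5 and gd19.5. With 3 libraries per group and high libraries in WT gd10.5 and both groups of gd16.5, standard errors in KO against WT reached 1.91 on the log2 scale. Between stages they reached 2.10, for *Afp* in KO gd16.5 against gd14.5.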
